A study of Mus musculus with 12 samples.

Results

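The genes from Hrg to Adipoq lie side by side on mouse chromosome 16, in the order Hrg, Kng2, Kng1, Eif4a2, Rfc4 and Adipoq. All ATAC-seq peaks that the deposited tables assign to these 6 genes, or that lie in a 574 kb window of chromosome 16 around them, were taken; in the mm10 genome their first base is 22791309 and their last 23315227. The window holds 36 of 58558 peaks in brown fat, 19 of them assigned to the 6 genes, and 17 of 39558 peaks in inguinal fat, 8 of them assigned to the 6 genes. The genes were chosen by the brown fat reads themselves, which were higher in AKO than in flox mice here. The brown fat values below are therefore a description of that contrast, without a test. That choice was made with earlier results of these data known, so the inguinal values are no independent check of it.

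ATAC-seq counts the DNA fragments that a transposase cuts out of a genome, and more fragments are cut where chromatin is open. Brown fat came from 3 flox mice, which are BAF60a flox/flox, and 3 AKO mice, which are BAF60a flox/flox and carry Adiponectin-Cre besides, all on a C57BL/6 background. BAF60a, encoded by Smarcd1, is a subunit of the SWI/SNF chromatin remodelling complex, and the Adiponectin promoter drives Cre in adipocytes, so that the gene is deleted there and not in the other cells of the tissue. Inguinal fat came from 6 flox and 6 AKO mice, aged 6 to 8 months, that were acclimated to 10 °C and kept there for 7 days. Their fat was pooled by genotype and split into 3 aliquots, so that n = 3 in inguinal fat covers aliquots of 1 pool and not separate mice. The age of the brown fat mice and the temperature they were kept at are not given in the sources used here. Whole tissue was used, and a change in the share of adipocyte nuclei cannot be told apart from a change within them.

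Adipoq encodes adiponectin, a hormone that fat cells secrete and that acts on liver and muscle through the receptors Adipor1 and Adipor2. Its neighbours have other roles. Hrg encodes histidine-rich glycoprotein and Kng1 and Kng2 encode kininogens, plasma proteins made mainly by the liver; kallikrein cuts kininogens to release bradykinin, a peptide that widens vessels. Hrg, the kininogens and the fetuins Ahsg and Fetub, which lie upstream, all belong to the cystatin superfamily. Eif4a2 encodes an RNA helicase of the eIF4F complex, which starts translation, and Rfc4 encodes a subunit of replication factor C, which loads the sliding clamp on DNA; both genes are widely active. St6gal1, which adds sialic acid to glycoproteins, follows downstream of Adipoq. The Adiponectin-Cre construct carries regulatory sequence of Adipoq itself, and only the AKO mice have it. Reads from the construct and reads from the gene's own place on chromosome 16 cannot be told apart in these tables, and the length, contents and copy number of the construct are not given in the sources used here.

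A start site is taken here as that of a gene's principal transcript in the annotation. Those of Kng2, Eif4a2, Rfc4 and Adipoq lay within brown fat peaks, whereas the start sites of Hrg and Kng1 did not. The RefSeq start sites of Eif4a2 and Rfc4 lie inside these principal transcripts, which start at 23107444 and 23127737. The last bases of their sequences below are therefore inside the transcripts. The 250 bases before the RefSeq start sites of the 4 genes with such a peak are shown. Reads were counted over the whole peaks, which are wider, and not within these sequences. They are RefSeq sequences (mm10, GRCm38.p6), read 5′ to 3′ along the gene, and capitals mark a CCAAT box (CCAAT) or a GC box (GGGCGG) on either strand.
Kng2, chr16:23029102-23029351, minus strand: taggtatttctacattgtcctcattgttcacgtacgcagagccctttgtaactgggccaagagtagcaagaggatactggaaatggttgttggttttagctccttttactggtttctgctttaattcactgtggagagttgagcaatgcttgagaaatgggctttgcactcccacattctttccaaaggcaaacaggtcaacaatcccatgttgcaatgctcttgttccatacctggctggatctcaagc
Eif4a2, chr16:23107218-23107467, plus strand: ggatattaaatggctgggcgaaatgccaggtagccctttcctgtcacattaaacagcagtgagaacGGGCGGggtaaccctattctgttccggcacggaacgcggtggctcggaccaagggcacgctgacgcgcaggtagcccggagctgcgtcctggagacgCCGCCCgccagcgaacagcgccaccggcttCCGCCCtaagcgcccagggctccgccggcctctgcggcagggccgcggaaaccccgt
Rfc4, chr16:23127731-23127980, minus strand: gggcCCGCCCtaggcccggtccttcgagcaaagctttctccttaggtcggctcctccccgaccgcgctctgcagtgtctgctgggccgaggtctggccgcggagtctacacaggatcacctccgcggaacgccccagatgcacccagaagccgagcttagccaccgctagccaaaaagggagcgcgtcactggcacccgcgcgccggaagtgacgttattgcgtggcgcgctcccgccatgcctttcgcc
Adipoq, chr16:23146286-23146535, plus strand: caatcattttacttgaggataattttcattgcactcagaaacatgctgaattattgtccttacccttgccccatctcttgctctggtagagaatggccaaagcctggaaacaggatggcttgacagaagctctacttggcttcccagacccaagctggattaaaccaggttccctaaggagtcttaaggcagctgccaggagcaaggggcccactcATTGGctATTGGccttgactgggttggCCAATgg
The Eif4a2 and Rfc4 promoters were GC-rich, with 66.4% and 67.2% G or C and 27 CpG dinucleotides each. The Adipoq promoter had 48.8% G or C and no CpG, and the Kng2 promoter 44.4% and 2 CpG. Of the 32851 RefSeq promoters of the same length, 33.8% held CCAAT and 32.7% GGGCGG. Adipoq had 3 CCAAT boxes and no GC box, Eif4a2 had 3 GC boxes and Rfc4 had 1. TATAAA, which 12.4% of promoters held, was in none of the 4.

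Before the results, the libraries were compared. Reads in peaks ranged from 6336670 to 27500738 in brown fat and from 4066720 to 6691161 in inguinal fat. In brown fat the first principal component (PC1), which held 55.6% of the variance, ran from -98.2 in flox replicate 1, the deepest library, to 112 in AKO replicate 2, the shallowest. A Smarcd1 peak in brown fat, on chromosome 15 from 99704113 to 99704521, held 136, 201 and 185 normalized reads in flox and 23.7, 57.9 and 26.9 in AKO, lower in every AKO mouse. The other brown fat peak of Smarcd1, from 99701935 to 99702679, did not differ in that way, with means of 437 in flox and 442 in AKO. The only inguinal Smarcd1 peak overlaps this second one and had means of 216 and 231, so the inguinal table holds no peak at the place that fell in brown fat. Peaks were assigned to all 5 brown adipocyte markers (Ucp1, Cidea, Dio2, Prdm16 and Ppargc1a) and all 6 adipocyte markers in both depots. In brown fat, 5 of 68 peaks at the brown adipocyte markers and 6 of 46 at the adipocyte markers had a positive log2 fold change, beside 50.9% of all peaks. In 28 and 21 of them AKO lay below flox without overlap, beside 8.84% of all peaks, and in none above. In inguinal fat, 13 of 20 and 7 of 19 were positive, beside 49.9% of all peaks. The part of these differences in the results below was not tested. At 5 macrophage, 5 lymphocyte and 5 skeletal muscle markers, 3, 1 and 2 peaks were found in brown fat, and 2, 1 and 1 in inguinal fat. The 5 endothelial markers had 26 and 9 peaks in the 2 depots, and the 5 fibroblast markers 19 and 15. Hrg and the kininogens are liver genes. Of 6 hepatocyte markers, only 3 had brown fat peaks, and 15 of these 17 peaks were assigned to Apoa1. Of the 17, 6 had a positive and 11 a negative log2 fold change. In inguinal fat 4 of the markers had 10 peaks, 4 positive and 6 negative, and 6 of the 10 were assigned to Apoa1.

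In brown fat, the mean of the AKO samples was above that of the flox samples at every listed peak from Hrg to Adipoq. Normalized reads are the reads in a peak divided by the size factor of the sample. The fitted log2 fold change comes from limma on log2(normalized reads + 1) with PC1 as a covariate, and the log2 ratio of means from the means of 3 samples with the same addition of 1. The window fell into 3 groups, drawn after their values were seen. Between Crygs and Fetub, 2 of 4 peaks had a positive fitted log2 fold change. From Hrg to Adipoq, all 20 did, with a median of 1.04 and a range from 0.25 to 2.01. In St6gal1, 11 of 12 did, with a median of 0.24. Over all brown fat peaks the share was 50.9% and the median 0.01. By the log2 ratio of means, which has no covariate, the St6gal1 peaks lay on both sides of 0, from -0.39 to 0.94.

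Every AKO sample lay above every flox sample at 16 of the 20 peaks from Hrg to Adipoq, at 3 of 12 in St6gal1 and at none of 4 between Crygs and Fetub. Over the whole table this held for 8.77% of peaks. The ratio of means reached 2 at 13 of the 20 peaks, beside 2.68% of all brown fat peaks. Weak peaks reach such ratios more often: among the 10444 peaks with a flox mean under 50 normalized reads, which include 14 of the 20, 13.0% did, and at 18.2% AKO lay above flox without overlap. A peak entered the table if at least 2 samples of a group called it, so a weak peak can be listed because it was high in AKO alone, and the counts over listed peaks are no support for a difference. Without AKO replicate 2, the AKO samples lay above flox at 19 of the 20 peaks, beside 11.4% of all peaks, and the ratio reached 2 at 12, beside 0.719%.

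**Figure D1:**
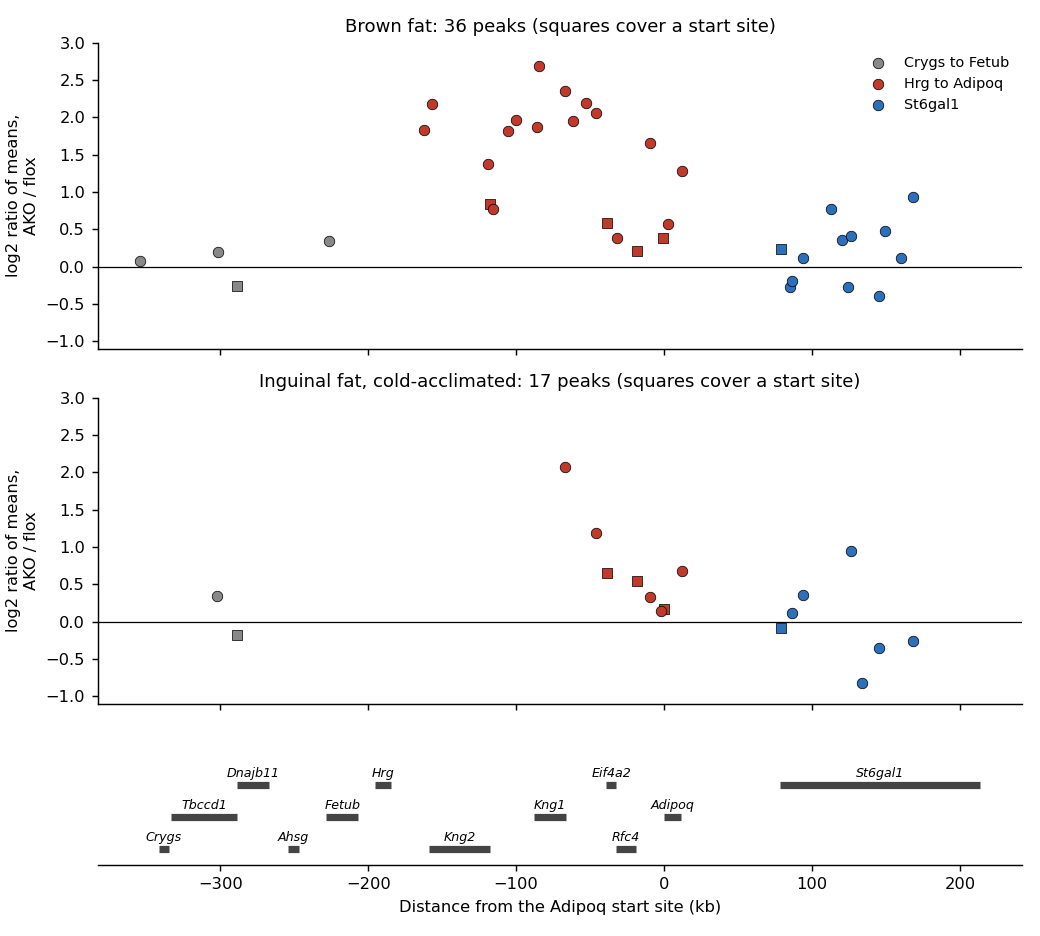
Log2 ratio of mean normalized reads, AKO over flox, of each window peak against its distance from the Adipoq start site in kb, for 36 brown fat peaks and 17 inguinal peaks; squares cover a start site, and bars at the bottom are genes. In brown fat, the 20 peaks from Hrg to Adipoq sat between 0.21 and 2.69, and the St6gal1 and Crygs to Fetub peaks lay on both sides of 0.

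The 20 peaks span 174.6 kb, from 22984189 to 23158743, and hold 12.1 kb of peak sequence. To the nearest peak upstream, which covers the first exon of some Fetub transcripts, the gap was 63.7 kb, and to the nearest downstream, over the St6gal1 start site, it was 65.8 kb. The groups were drawn after their values were seen, so these gaps do not show where a rise begins or ends. The St6gal1 peaks downstream also took a larger share of reads in AKO, with a ratio of 1.14. Peaks with a positive fitted log2 fold change formed a run of 31 neighbours, from Fetub into St6gal1. It was the longest such run in brown fat, while by the ratio of means the run was 22 peaks long and the longest elsewhere was 60. The 8 neighbouring peaks from 23040520 to 23100901, at Kng2, Kng1 and upstream of Eif4a2, each had AKO above flox without overlap, and no longer run of that kind was found.

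Hrg had no peak over its own body. The 2 peaks assigned to it lay downstream, one between genes and one in intron 9 of Kng2. The first, only 8 bp wide, held 1.57, 0 and 2.59 normalized reads in flox and 4.12, 11.6 and 6.72 in AKO. The second, from 22989712 to 22989801, held 2.09, 1.48 and 6.47 in flox and 16.5, 23.2 and 16.3 in AKO. Both were at the lower end of what these libraries can measure, and the groups did not overlap. Of the second peak, 70.0% matched another sequence in Kng1 at 95.2% identity, and reads of near-identical copies cannot be placed with certainty; only reads with a mapping quality of at least 30 were counted.

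Kng2 had 4 peaks. The peak over its start site, from 23028969 to 23029359, held 129, 101 and 110 normalized reads in flox and 206, 189 and 218 in AKO, a mean of 113 ± 14.2 against 204 ± 14.3 (SD, n = 3 mice), with no overlap. The peak in intron 1, from 23027470 to 23027675, held 40.6 ± 18.2 in flox and 107 ± 3.62 in AKO. All of its 206 bp match a second place, in Kng1 from 23059681 to 23059886, at 98.1% identity, so its reads are uncertain between both kininogen genes. The 2 peaks upstream of Kng2 held 67.5 ± 10.7 against 116 ± 41.4, with overlap because AKO replicate 3 had 69.1, and 26.9 ± 8.64 against 97.4 ± 16.5, without overlap.

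Kng1 had 4 peaks, none over its start site, and in all of them AKO lay above flox. The peak with the largest fitted log2 fold change of the 6 genes, 2.01, was in intron 3 from 23061870 to 23061980. It held 2.61, 5.91 and 6.47 normalized reads in flox and 25.8, 52.1 and 35.5 in AKO, a ratio of means of 7.57. The peak in exon 10, from 23079124 to 23079482, held 10.97, 7.39 and 28.5 in flox and 69.1, 120 and 62.4 in AKO. Exon 10 is part of 1 of the annotated transcripts and encodes the histidine-rich domain of high molecular weight kininogen. In both peaks AKO replicate 2 was the highest sample, and the groups did not overlap. The intron 3 peak and the inguinal peak within exon 10 had the largest fitted log2 fold changes among the peaks of the 6 genes in each depot, and their plus-strand sequences are shown for that reason, with no motif marked in them.
Kng1 intron 3, brown fat, chr16:23061870-23061980: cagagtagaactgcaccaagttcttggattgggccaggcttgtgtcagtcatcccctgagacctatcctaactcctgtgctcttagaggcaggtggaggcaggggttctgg
Kng1 exon 10, inguinal fat, chr16:23079313-23079383: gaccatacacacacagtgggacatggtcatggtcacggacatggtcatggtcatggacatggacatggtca

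Eif4a2 and Rfc4 carry the strongest promoter peaks of the stretch besides Adipoq. The peak over the Eif4a2 start site, from 23107109 to 23108626, held 940, 712 and 634 normalized reads in flox and 1308, 888 and 1232 in AKO. AKO replicate 2, at 888, lay below flox replicate 1, so the groups overlapped. With PC1 as a covariate the fitted log2 fold change was 0.997, against a log2 ratio of means of 0.58. The 3 other peaks assigned to Eif4a2 lie upstream, between Kng1 and Eif4a2, and their ratios of means were larger, at 3.92, 4.71 and 4.25. One of them, from 23093849 to 23094282, which overlaps the pseudogene Gm8134, held 23.0, 26.6 and 29.8 in flox and 104, 174 and 95.9 in AKO.

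The peak over the Rfc4 start site, which Rfc4 shares with a non-coding RNA on the other strand, held 767, 661 and 630 normalized reads in flox and 957, 612 and 816 in AKO. AKO replicate 2 was the lowest of all 6 samples there, and the ratio of means was 1.16. In the peak upstream of Rfc4, from 23136574 to 23137439, the same library was the highest, with 288 beside 114 and 129 in the other AKO samples and 39.7, 43.6 and 82.8 in flox. The peak assigned to the small nucleolar RNA Snora81, which overlaps an intron of Rfc4 and part of its exon 8, had the smallest fitted log2 fold change of the 20, 0.25, with 44.0 ± 10.4 in flox and 57.9 ± 5.28 in AKO and overlap between the groups.

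**Figure D2:**
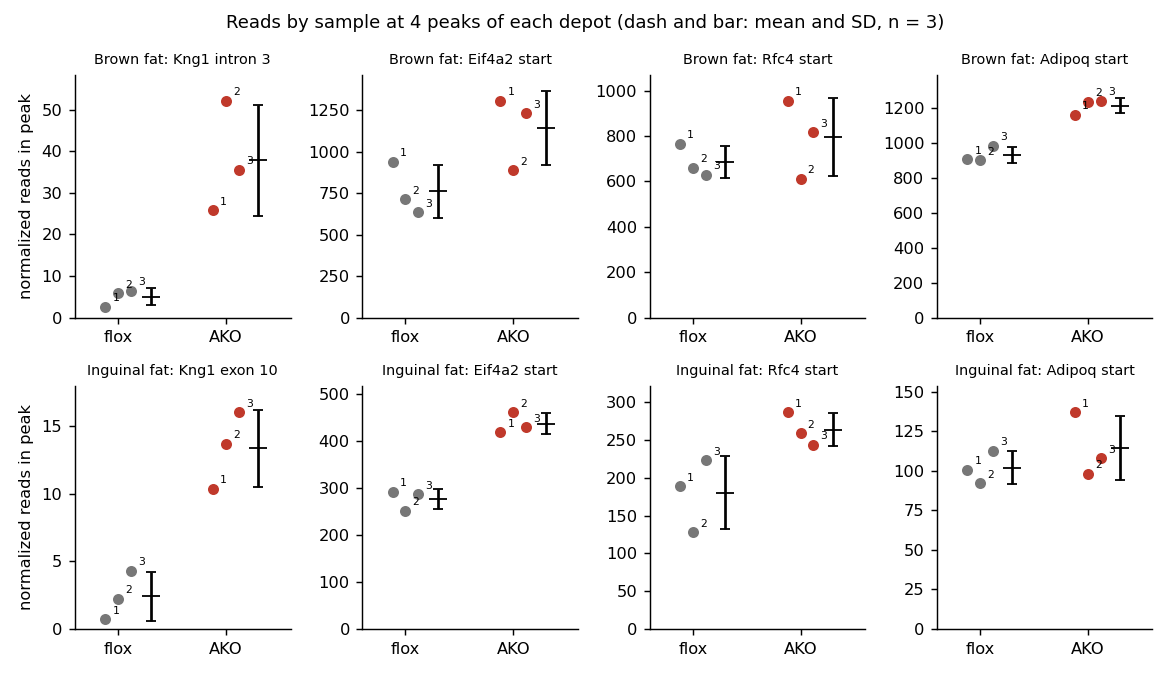
Normalized reads of each sample (numbers give the replicate) at 4 peaks of brown fat (mice) and 4 of inguinal fat (aliquots of 1 pool), with the mean and SD of n = 3 at the right of each group. Groups did not overlap at the Kng1 peaks of both depots, at Adipoq in brown fat and at Eif4a2 and Rfc4 in inguinal fat.

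The widest peak of the stretch covers the Adipoq start site, from 23144383 to 23147137. It held 909, 903 and 986 normalized reads in flox and 1164, 1238 and 1244 in AKO. The means were 932 ± 46.2 and 1215 ± 44.8, a ratio of 1.30 without overlap. The other brown fat peaks of Adipoq, in intron 1 and downstream of the gene, had ratios of 1.49 and 2.47, without overlap in either. Adipoq, the gene whose promoter drives Cre, had a smaller ratio at its start site than Kng2, at 1.80, and a larger one than Rfc4.

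To compare peaks of unequal width, normalized reads were divided by the width plus the read length of 38 bp. In flox brown fat the level of the 20 peaks ranged from 26.1 to 490 normalized reads per kb, an 18.7-fold range. The difference, AKO minus flox, ranged from 34.3 to 273 per kb, a 7.97-fold range, with a median of 150. Weak peaks may be listed only because they were high in AKO, which sets a lower limit to their difference, so nothing is read from these ranges. At the 4 peaks over start sites the median difference was 157 per kb, and at the 16 other peaks it was 150. No single AKO mouse had such near values, with 192, 95.3 and 177 over start sites in replicates 1 to 3 and 128, 255 and 110 elsewhere. The median log2 ratio of means, in contrast, was 0.48 over start sites and 1.85 elsewhere.

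Summed over the 20 peaks, the difference from the flox mean was 149, 153 and 131 normalized reads per kb in the 3 AKO mice and 11.9, -13.2 and 1.29 in the flox mice. All AKO mice lay above all flox mice in this sum. They differed in where the reads fell: over start sites AKO replicate 2 had 67.9 per kb beside 178 and 159, and elsewhere it had 237 beside 119 and 103. Among all brown fat peaks with a flox mean under 50, the median log2 difference of AKO replicate 2 from the flox mean was 0.59, beside 0.15 in both other AKO mice, so its weak peaks were higher throughout the table. In St6gal1 the summed difference was 38.3, -7.19 and 28.3 per kb in AKO, and between Crygs and Fetub it was -23.9, -12.2 and 26.7.

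**Figure D3:**
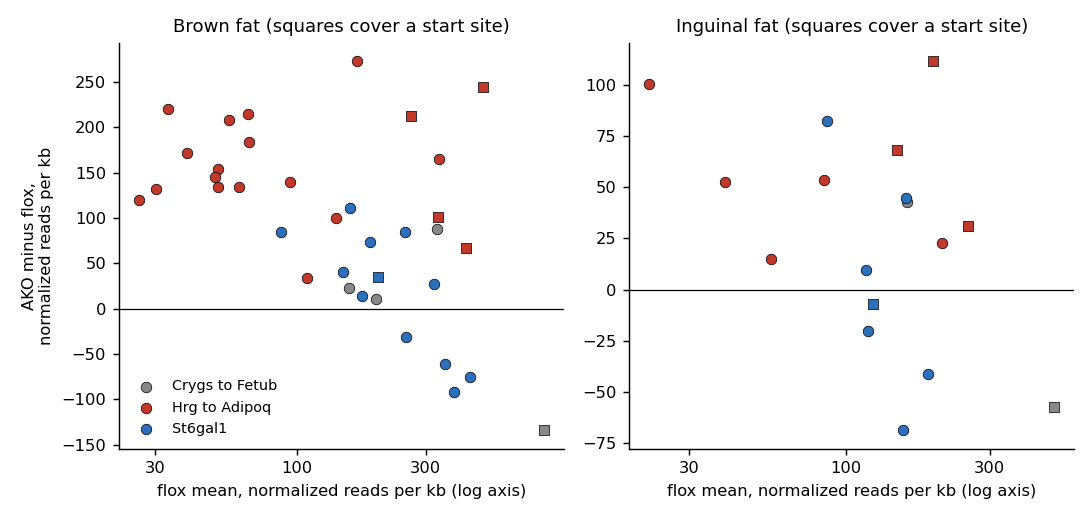
Difference of mean normalized reads per kb, AKO minus flox, against the flox mean per kb on a log axis, for each window peak; squares cover a start site. In brown fat the peaks from Hrg to Adipoq lay between 34.3 and 273 per kb, while St6gal1 and Crygs to Fetub peaks reached below 0.

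Across the 20 peaks, the log2 ratio of means ran against the flox mean with a Spearman rho of -0.81, and the difference in reads ran with the width of the peak with a rho of 0.88. The points share their 6 libraries, and the ratio contains the flox mean itself; over all 58558 peaks the first rho was -0.42. GC content had a rho of 0.29 with the ratio in the stretch and 0.30 over all peaks.

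Read shares do not depend on size factors. The 20 peaks from Hrg to Adipoq took 218, 211 and 229 reads per 1000000 reads in peaks in flox and 369, 405 and 352 in AKO, a ratio of 1.71. Peaks over start sites took 183 ± 6.84 in flox and 259 ± 17.8 in AKO, a ratio of 1.41, and the other 16 peaks 36.4 ± 11.3 and 116 ± 43.1, a ratio of 3.19, or 2.51 without AKO replicate 2. By gene the ratio was 5.80 for Hrg, 2.22 for Kng2, 4.71 for Kng1, 1.93 for Eif4a2, 1.38 for Rfc4 and 1.42 for Adipoq. The Hrg ratio rests on 7, 2 and 7 reads in flox, and it was 11.2 without flox replicate 3. All 6 genes had AKO above flox without overlap in this measure. They were chosen by these same reads, and weak peaks can be listed because they were high in AKO alone. The share of all genes with such a separation was not counted, so nothing is read from it. St6gal1, with a ratio of 1.14, also had AKO above flox in all samples, and the 4 peaks between Crygs and Fetub, with 1.04, did not.

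**Figure D4:**
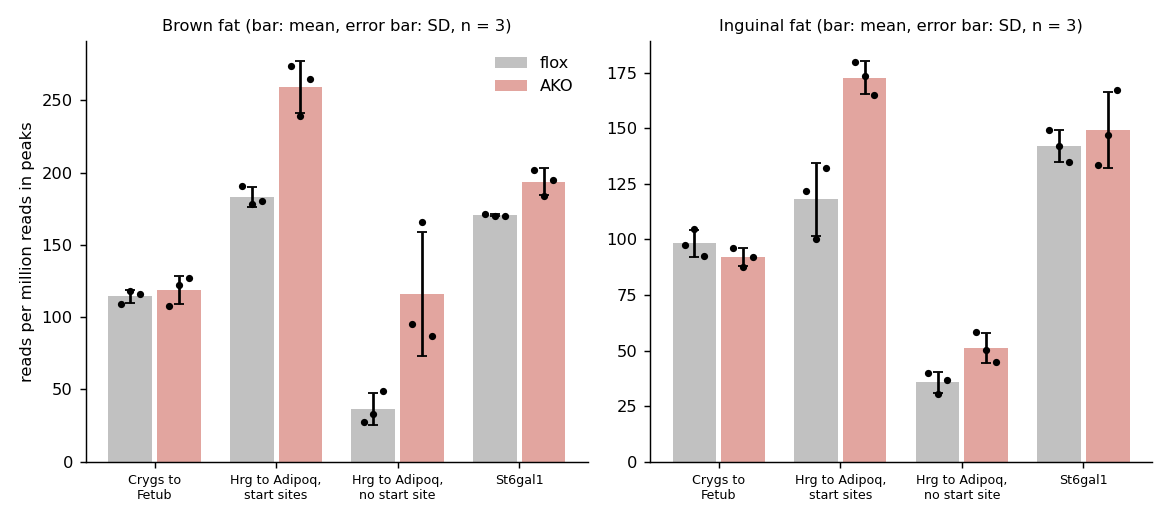
Reads in the window peaks per 1000000 reads in peaks, for flox and AKO in each depot; bars are means, error bars SDs of n = 3, and points are samples. In brown fat the 16 peaks from Hrg to Adipoq without a start site took 36.4 per 1000000 in flox and 116 in AKO.

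Outside the stretch, 13 of the 16 other window peaks of brown fat had a positive fitted log2 fold change, with a median of 0.17. Their log2 ratios of means, without a covariate, ran from -0.39 to 0.94, and AKO lay above flox without overlap at 3. The peak over the shared start of Dnajb11 and Tbccd1, a chaperone gene of the endoplasmic reticulum and a gene for a tubulin-folding cofactor domain protein, held 753 ± 44.3 normalized reads in flox and 630 ± 100 in AKO brown fat. The peak in Fetub held 197 ± 44.0 and 250 ± 35.9, with overlap. Just before the window, all 5 flanking peaks, assigned to Crygs and the diacylglycerol kinase gene Dgkg, had negative fitted log2 fold changes. By the log2 ratio of means, without the covariate, they lay on both sides of 0, from -0.72 to 0.15. In 3 of them AKO lay below flox without overlap, beside 8.84% of all peaks. The nearest, from 22766768 to 22767386, held 303, 306 and 288 in flox and 205, 155 and 196 in AKO. Just after the window, 3 of 5 peaks assigned to Rtp1 had a positive fitted log2 fold change, and none was without overlap. Their log2 ratios of means ran from -0.30 to 0.93.

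With limma, no brown fat peak passed an adjusted p of 0.1 in either direction, beside 2027 higher (3.46%) and 3274 lower (5.59%) peaks at an unadjusted p under 0.05. DESeq2 with the same covariate called 5 of the 36 window peaks higher, beside 0.0803% of all peaks, and edgeR called 2, beside 0.0273%. Since these values chose the genes, nothing is read from these counts.

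In inguinal fat, the same stretch had more reads in AKO aliquots. Of 17 window peaks, 12 had a positive log2 fold change, beside 49.9% of all inguinal peaks, and the 8 peaks assigned to the 6 genes, from Kng1 to Adipoq, were all positive. Their median was 0.62 and their range 0.14 to 2.20, beside a median of 0.00 over all peaks. These 8 peaks are neighbours, and inguinal fat had 146 runs of positive peaks at least as long, up to 17 peaks. The longest run here with AKO above flox without overlap was 4 peaks. Inguinal fat had 17 runs of that kind at least as long, up to 6 peaks. In 5 of the 8, every AKO aliquot lay above every flox aliquot, beside 10.6% of all peaks. A flox mean under 50 normalized reads was found at 4 of the 8. Of the 13873 inguinal peaks that weak, 7893 were positive, and in 1877 AKO lay above flox without overlap. Here too a weak peak can be listed because it was high in AKO alone. In St6gal1, 3 of 7 peaks were positive and 1 was above flox without overlap. The median over the 17 peaks was 0.34, and 0.17 without flox replicate 2. No peak was assigned to Hrg or Kng2.

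Limma called none of the 17 peaks at an adjusted p of 0.1, as it called none of the 39558 in the table, where 3009 were higher and 2934 lower at an unadjusted p under 0.05. In the window 6 were higher and 1 lower at that level, beside 7.61% and 7.42% of all peaks. DESeq2 called 3 window peaks higher, beside 0.493% of all peaks, and edgeR 5, beside 2.14%. Of the 5 edgeR calls, 4 were from Hrg to Adipoq and 1 was in St6gal1. These tests cover the spread between aliquots only. On PC1 of the inguinal table, which held 33.8% of the variance, flox aliquots lay between -41.4 and -30.9 and AKO aliquots between 29.4 and 37.8.

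The largest inguinal log2 fold change in the window was at Kng1. Its peak in exon 10, from 23079313 to 23079383, held 0.713, 2.22 and 4.30 normalized reads in flox and 10.4, 13.7 and 16.04 in AKO. All AKO aliquots lay above all flox aliquots, with a log2 fold change of 2.20 (SE 0.39, limma adjusted p = 0.149). The edgeR adjusted p was 0.0295, and DESeq2 gave none at this low count. This peak lies inside the brown fat peak in the same exon, where the log2 ratio of means was 2.35.

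At Eif4a2, the peak upstream, from 23100336 to 23100833, held 18.5, 24.5 and 20.7 normalized reads in flox and 54.2, 51.4 and 42.8 in AKO. Its log2 fold change was 1.18 (SE 0.16, limma adjusted p = 0.149), with a DESeq2 adjusted p of 0.0492. The peak over the start site, from 23107194 to 23108583, held 292, 251 and 287 in flox and 418, 461 and 429 in AKO. Its log2 fold change of 0.66 (SE 0.13) had an adjusted p of 0.151 in limma and 6.1e-05 in DESeq2. Both peaks separated the genotypes in all 6 aliquots.

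The Rfc4 start site peak held 189, 128 and 223 normalized reads in flox and 287, 259 and 244 in AKO. These groups did not overlap, and the log2 fold change of 0.58 (SE 0.22) had an adjusted p of 0.276 in limma and 0.0996 in DESeq2. The peak upstream of Rfc4, which had the ratio of 3.20 in brown fat, had one of 1.27 in inguinal fat, with overlap.

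Of the 4 genes with inguinal peaks, Adipoq had the smallest ratio. Its start site peak, from 23146279 to 23146642, held 101, 92.3 and 113 normalized reads in flox and 137, 98.2 and 108 in AKO. These groups overlapped, with a log2 fold change of 0.16 (SE 0.17, limma adjusted p = 0.702). The peak just upstream also overlapped, and the peak downstream of the gene, with 17.4 ± 4.74 in flox and 28.5 ± 6.06 in AKO, did not (limma adjusted p = 0.253).

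In St6gal1, the peak from 23272888 to 23273183 in intron 2 was the only one with AKO above flox without overlap. It held 28.9 ± 3.88 in flox against 56.5 ± 13.7 in AKO, a log2 fold change of 0.92 (SE 0.21, limma adjusted p = 0.154). Its adjusted p was 0.0397 in edgeR and 0.125 in DESeq2. At the shared start of Dnajb11 and Tbccd1 the AKO aliquots lay below flox without overlap, as at 10.3% of all inguinal peaks, at 355 ± 18.6 against 403 ± 19.8 (limma adjusted p = 0.542).

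As a share of reads in peaks, the window took 409, 377 and 397 per 1000000 in flox and 468, 458 and 469 in AKO aliquots, a ratio of 1.18. The 8 peaks of the 6 genes took 162, 131 and 169 in flox and 238, 224 and 210 in AKO, a ratio of 1.46, without overlap. By gene the ratio was 5.54 for Kng1, or 9.13 without flox replicate 3, 1.64 for Eif4a2, 1.43 for Rfc4 and 1.17 for Adipoq, where the aliquots overlapped. It was 1.05 for St6gal1 and 0.937 between Crygs and Fetub, with overlap in both. With 3 against 3 aliquots, an exact permutation test of such a share cannot go below p = 0.1.

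Per kb, the median difference, AKO minus flox, over the 8 inguinal peaks was 53.1 normalized reads, and it ranged from 15.0 to 112 while the flox level ranged from 22.1 to 253. Summed over the 8 peaks it was 76.1, 64.4 and 51.9 per kb in the 3 AKO aliquots and 8.68, -21.9 and 13.3 in flox. The tables were normalized separately, so these amounts cannot be set against those of brown fat.

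Peaks of both depots overlapped in 16 pairs in the window, and the fold changes had the same sign in 12 of them. From Hrg to Adipoq, 8 pairs made from 7 brown fat and 8 inguinal peaks were all positive in both depots. Across these 8 pairs, the log2 ratios of means ran together with a Pearson r of 0.78 and a Spearman rho of 0.73, given as a description, since neighbouring peaks share libraries and 1 brown fat peak was used in 2 pairs.

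Genes with related roles elsewhere in the genome were counted in the same way. Of 56 brown fat peaks at genes of adiponectin action and secretion, such as Adipor1, Adipor2 and Pparg, 16 had a positive and 40 a negative fitted log2 fold change, none had AKO above flox without overlap and 19 had AKO below, beside 8.77% and 8.84% of all peaks. Pparg, the main regulator of fat cell genes, had 21 of these peaks, 20 of them negative with a median of -0.33. In inguinal fat 18 of 34 were positive, 2 were above and 5 below without overlap, beside 10.6% and 10.3% of all peaks. The list was described by counts alone, and no set was tested.

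The kallikrein-kinin and contact system, which acts on kininogens, had 5 positive of 11 peaks in brown fat and 1 of 8 in inguinal fat, with none above flox without overlap in either and 1 below in each. For this and the following lists, the shares of all peaks are those just given, 8.77% above and 8.84% below in brown fat and 10.6% and 10.3% in inguinal fat. Cystatin superfamily genes outside the window had 6 positive of 9, with none above and 1 below, and 1 of 5, with 1 above and none below. The eIF4F genes had 30 positive of 53, with 2 above and 2 below without overlap, and 14 of 38, with 3 and 3. Replication factor C and sliding clamp genes had 9 positive of 16, with 3 above and 2 below, and 4 of 11, with none above and 1 below. Limma called none of the peaks of these lists, and DESeq2 called 1, a lower brown fat peak of the adiponectin list, beside 0.217% of all brown fat peaks.

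Over the 6 brown fat samples, the summed window reads were most like those of Mapk3, Atoh8 and Znrf4 among 17106 genes, with Pearson r of 0.995, 0.993 and 0.991. In inguinal fat they were most like those of Ltbp3, Slc39a3 and Caskin1 among 15956 genes, with r of 0.992, 0.989 and 0.988. With 6 samples and so many genes such values are a description only. No gene was among the 3 in both depots.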

How the data were processed

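ATAC-seq was measured in the brown fat of 3 mice per genotype and in 3 aliquots of 1 inguinal fat pool per genotype. Per the methods and the submitters' processing notes, the authors trimmed adapters, mapped 38 bp read pairs to mm10 with BWA 0.7.17-r1188, marked duplicates with Picard 2.8.14, kept autosomal reads of mapping quality 30 or more, called broad peaks per sample with MACS2 2.1.1.20160309 and counted reads in the union of peaks seen in at least 2 replicates. The deposited signal values are these reads divided by a DESeq2 size factor per sample; whole reads were recovered from them within a tolerance of 0.001. Columns of the authors' own fold changes and p-values were not used. Column names do not give the tissue of a table, which was told by its PC1 covariate and its 47205 peaks with an adjusted p.

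The genotypes were compared with limma 3.58.1 (R 4.3.3) after a log2 transform of normalized reads plus 1. The brown fat model also held PC1, the inguinal one no covariate, and p-values were adjusted by Benjamini-Hochberg over all peaks of a table, with a threshold of 0.1. edgeR 4.0.16 and DESeq2 1.42.0 on the recovered reads were alternatives, among others given with the results below. The limma, DESeq2 and edgeR fits were run on simulated data without PC1. The brown fat model with PC1 was not tested in this way. The members, lists and peak groups were chosen with earlier results of these data known, so brown fat values are a description, and no p is given for scores over the members. Named were all genes with window peaks, 5 flanking peaks on each side, up to 3 genes of a list with most peaks and the 3 genes most like the window. Marker and related-gene lists were written from general knowledge. Annotation is GENCODE vM21, and positions are 1-based. Window peaks were matched to the genome with BLAST, at 95% identity over at least 38 bp. Precision at weak peaks is limited by depth: the median peak held 70 to 226 reads in brown fat and 62 to 98 in inguinal fat samples. Brown fat replicate numbers did not pair mice (correlations of deviations 0.494, 0.0632 and -0.236), and inguinal numbers did not pair aliquots (-0.0387, -0.0497 and -0.0566).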

Additional observations from a re-analysis of the deposited data

How the results depend on the processing

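In brown fat, the 20 peaks from Hrg to Adipoq stayed positive in every one of 22 alternative fits, except that of Snora81 in 1 fit. The genes were chosen by these same reads, so nothing is read from this. The sign changed in at least 1 fit at 3 of 4 peaks between Crygs and Fetub and at 6 of 12 in St6gal1. The median fitted log2 fold change over the 36 window peaks was 0.66, and it was 0.51 with a pseudocount of 10, 0.58 in the 33 peaks that had 10 or more reads in each mouse, 0.60 after thinning to the shallowest sample, 0.73 with a GC correction, 0.58 without PC1 and 0.58 in DESeq2 without PC1. With the replicate block it was 0.52 with PC1 and 0.58 without, and the block changed no count of calls. It was 1.08 over the 19 peaks of the 6 genes (19 positive), 0.52 over 31 peaks with a mean of at least 50, and 1.24 over the 16 peaks from Hrg to Adipoq without a start site (16 positive). Leaving out 1 mouse gave 0.51 to 0.66, and 29 to 34 positive peaks against 33.

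The number of brown fat peaks called was 0 in limma, 1 with a pseudocount of 10, 174 in DESeq2, 79 in edgeR, 53 in limma-trend and 603 in DESeq2 without PC1. In inguinal fat it was 0 in limma, 420 in DESeq2, 1852 in edgeR and 1440 in limma-trend, and the window peaks called higher were 0, 3, 5 and 5. The cause of these differences between tools was not tested.

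The inguinal window median of 0.34 was 0.17 to 0.31 with 1 aliquot left out, 0.62 over the 8 peaks of the 6 genes, 0.16 over 11 peaks with a mean of at least 50 and 0.69 over the 5 peaks from Kng1 to Adipoq without a start site (5 positive). The share ratio of 1.18 was 1.16 to 1.2023 with 1 aliquot left out. The inguinal replicate block left 12 positive peaks and a median of 0.34. Signs turned at 10 inguinal peaks with PC1 as a covariate, and nowhere else; PC1 separated the genotypes, so this fit leaves little of the contrast. The values were -1.38 and 0.26 at Tbccd1 and Dnajb11, -1.92 at Kng1, -0.86 upstream of Eif4a2, -0.12, -0.48 and -0.54 at Adipoq, and 3.15, 0.79 and 1.91 at 3 St6gal1 peaks.

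Alternatives named as DESeq2 without PC1 and peaks without a start site, and leaving AKO replicate 2 out of counts or 1 sample out of read shares, were chosen after seeing the data. Depth limits what can be said of peaks under 50 reads.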
